A study of Mus musculus with 24 samples.

Results

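Deletion of SECIS1 from the 3′UTR of Selenop was examined through ribosome footprints on the Selenop mRNA in mouse liver. The comparison holds 6 of the 12 ribosome profiling libraries and of the 24 samples in the series, chosen by column heading, with 3 libraries from SECIS1 deletion mice against 3 from wild type mice of the same line. All were liver of C57Bl6 mice on standard chow, and age, sex and whether the deletion was carried on one or both alleles are not given in the labels. Whether each library is its own animal is not stated either. The p-values therefore reflect variation among these samples, part of which may be technical. The title of deletion replicate 1 names no group. It was placed by its column heading, its number follows accession order, and the main results are also given without it.

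Selenop is the plasma protein with which the liver supplies selenium to other tissues. Its reading frame holds several UGA codons that are read as selenocysteine, with the first near the start and the others towards the end of the protein. A SECIS element is a stem-loop in the 3′UTR that, with its binding protein and a dedicated elongation factor, lets the ribosome insert selenocysteine at UGA in place of stopping. Selenop carries a pair of such elements, and the comparison asks what the mRNA's ribosomes do when SECIS1 is missing.

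Values are A-site counts, which place each footprint at its ribosome's A site on 1 of nucleotides 1 to 2096 of the mRNA. Total counts were 66070, 55710 and 34061 in wild type replicates 1, 2 and 3. They were 27317, 23331 and 22077 in deletion replicates 1, 2 and 3. Part of this gap lay at nucleotides 1530 to 1703, with 16563, 21105 and 10739 wild type and 1, 0 and 0 deletion counts. The reading frame held 49263, 34465 and 23251 counts in the wild type and 27250, 23290 and 22002 in the deletion. Wild type replicate 3 thus had fewer frame counts than deletion replicates 1 and 2. The deletion carries the larger counting error where its own counts are few, as towards the end of the frame. No other gene is in the tables, so the labelled tissue could not be checked against liver markers. Density means counts per nucleotide divided by that at nucleotides 173 to 313 (codons 7 to 53, upstream of UGA1, the first selenocysteine codon, taken as codon 59), where the 6 libraries held 5284 to 13516 counts. Changes are log2 of deletion over wild type from edgeR's quasi-likelihood test, called at an adjusted p under 0.05.

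The sequence around the 3′UTR peak separated the groups first. Nucleotides 1645 to 1647 held 13002, 17623 and 9222 counts in the wild type and 0 in each deletion library. The stretch around this peak without a count in deletion replicates 2 and 3 reached from nucleotide 1530 to 1703, and wild type libraries held 16563, 21105 and 10739 counts there, or 25.1%, 37.9% and 31.5% of their totals. Its bounds were set from those 2 deletion libraries, so their 0 counts are a description. The 95% exact Clopper-Pearson intervals of these counts of 0 reach up to 0.0158% and 0.0167% of their totals. Deletion replicate 1, which did not enter the bounds, had 1 count in the stretch of 27317 in all (0.00366%, 95% exact Clopper-Pearson interval 9.27e-05% to 0.0204%). On this measure the library that only its heading calls a deletion lay with the deletion libraries and apart from every wild type library. No source used here places the deleted sequence on the mRNA, and if it covers the stretch no read could fall there.

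From the start of the reading frame to codon 260 the deletion and wild type libraries were not distinguished by any window. Windows of 30 nucleotides, or 10 codons, were aligned to the start codon over the whole mRNA, and 47 of 70 passed the filter on low counts. Of these, 34.0% fell in the deletion and 0.0% rose by the edgeR test (0 rose at an unadjusted p under 0.05, and 0 with DESeq2). None of the 26 windows before codon 261 was called, none had groups that did not overlap, and their log2 changes ran from -0.22 to 0.23 with standard errors of 0.14 to 0.38. The cut at codon 261 was placed with results of these data known. Numbers and likenesses on either side of it, here and below, are therefore a description and no separate test. The shape of the profile was shared as well. Across codons 7 to 260, Spearman's rho between a wild type and a deletion library was 0.938 to 0.974 over 9 pairs, beside 0.927 to 0.962 between wild type libraries, as a description of codons that share their sequence and libraries.

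**Figure D1:**
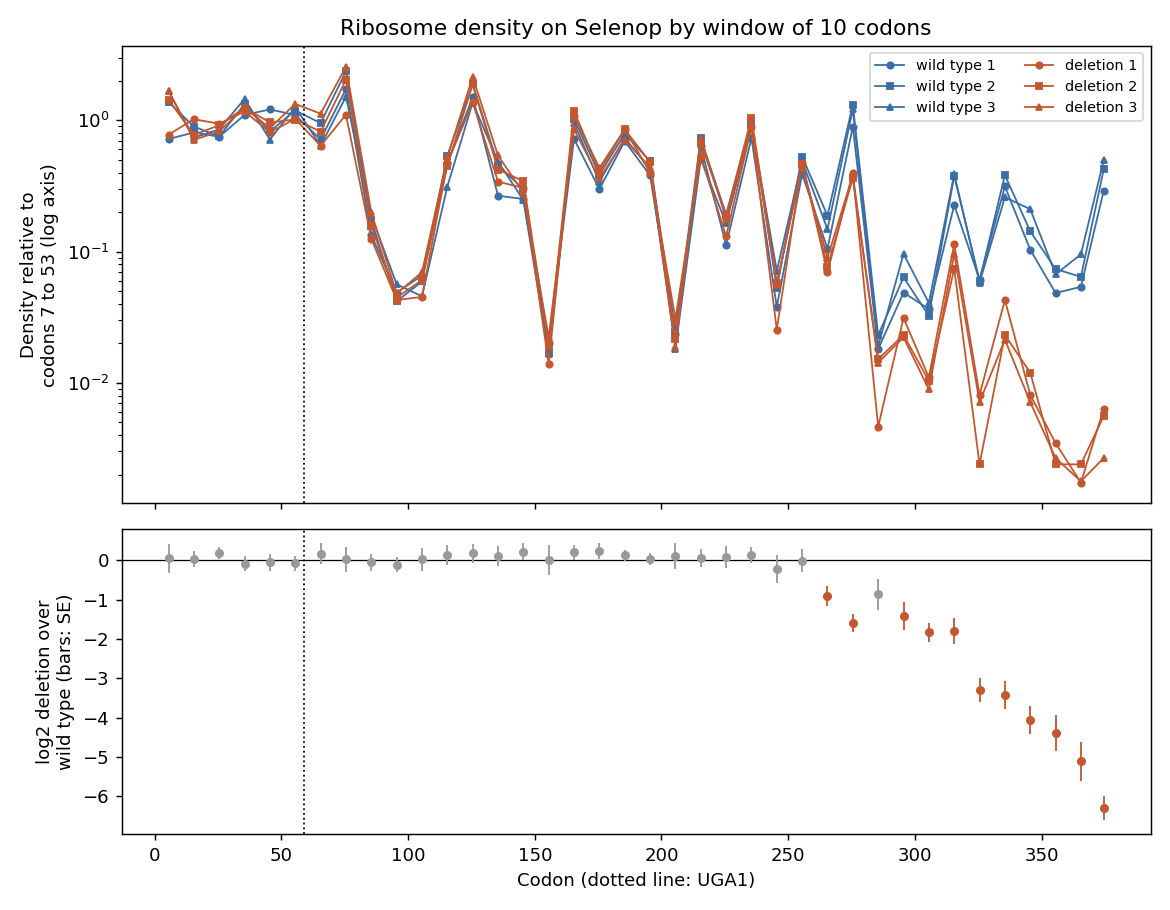
Ribosome density on Selenop by window of 10 codons. The upper panel plots the density of each of the 3 wild type (blue) and 3 deletion (orange) libraries relative to codons 7 to 53 on a log axis against codon number, and the lower panel the log2 change of deletion over wild type with its standard error, with orange points past an adjusted p of 0.05. The libraries run together up to codon 260 and part from codon 261, with the gap widening to -6.30 at the last window.

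Initiation was read at the start of the frame. At codon 2, where the A site of an initiating ribosome lies, counts per codon over the upstream mean were 3.78, 10.2 and 14.0 in the wild type and 3.52, 8.98 and 11.8 in the deletion. The groups overlapped, and replicate 1 was the lowest in each. The exact permutation p was 0.7 (two-sided and unpaired, as are all such tests here, and 3 against 3 cannot go below 0.1). Codons 1 to 6 together changed by 0.04 (SE 0.40, 95% interval -0.84 to 0.93, edgeR adjusted p = 0.947). Without the 5 highest nucleotides of each part, nucleotide 158 in codon 2 among them, the change was 0.80 and passed the test (edgeR adjusted p = 0.0105). Codons 4, 5 and 6 each had all deletion libraries above all wild type libraries, beside 7.38% of all codons tested. Codon 5 was at 0.98 (SE 0.34, edgeR adjusted p = 0.0553) and called with TMM, DESeq2 size factors, all coding counts, DESeq2 or only the SECIS1 line. It was not called without the filter on low counts, with a block for replicate number or with any 1 library left out. These 3 codons are named after their values were seen. The leader, nucleotides 1 to 154, changed by 0.03 (SE 0.44, edgeR adjusted p = 0.950), from a density of 0.00350 ± 0.00167 (SD, n = 3) to 0.00362 ± 0.00151 (SD, n = 3). These intervals leave room for changes near 2-fold in either direction.

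At UGA1 the deletion libraries lay lower at the codon itself, without passing the test. Occupancy of codon 59 over the upstream mean was 0.456, 0.418 and 0.439 in the wild type and 0.364, 0.279 and 0.391 in the deletion. All 3 deletion libraries were below all 3 wild type libraries, with a log2 difference of -0.36 (exact permutation p = 0.1, the smallest possible, and edgeR adjusted p = 0.705). With 1 codon added on each side the difference was -0.0919 (exact permutation p = 0.7). The wider neighbourhood, codons 54 to 64, changed by 0.06 (SE 0.20, edgeR adjusted p = 0.804).

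Beyond UGA1, ribosome density in the proximal part of the frame, codons 65 to 272, did not pass the test in either direction. Proximal density was 0.440, 0.569 and 0.451 in wild type replicates and 0.440, 0.547 and 0.573 in deletion replicates. The groups overlapped, and the change was 0.10 (SE 0.14, edgeR adjusted p = 0.608) on a 95% interval of -0.22 to 0.41. Without deletion replicate 1 it was 0.20 (SE 0.14, edgeR adjusted p = 0.259). The 4 codons with the highest wild type counts in this part were 71, 74, 121 and 129, and none was called, with log2 changes of 0.13, -0.01, 0.28 and 0.13 (edgeR adjusted p from 0.795 to 0.979). Codon 74, the highest of them, held 2319, 1993 and 873 counts in the wild type and 726, 1237 and 1512 in the deletion.

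The distal part of the frame, codons 273 to 373, held 4.02-fold fewer footprints per upstream count in the deletion. Distal density was 0.181, 0.254 and 0.245 in wild type replicates 1, 2 and 3 and 0.0616, 0.0523 and 0.0553 in deletion replicates 1, 2 and 3. Each deletion library was below each wild type library, and deletion replicate 1 was the highest of its group. The distal part fell by 2.01 on the log2 scale (95% interval -2.38 to -1.64, SE 0.17, edgeR adjusted p = 2.74e-06), and by 2.07 (SE 0.19, edgeR adjusted p = 1.38e-05) without deletion replicate 1. Of the 11 tests on parts of the mRNA, 45.5% found a fall, among them the empty stretch, whose fall was set by the choice of its bounds.

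Set against the proximal part in place of the upstream part, the loss was of like size. Distal over proximal density was 0.411, 0.446 and 0.543 in the wild type and 0.140, 0.0955 and 0.0965 in the deletion. The mean was 0.467 ± 0.0684 (SD, n = 3) against 0.111 ± 0.0253 (SD, n = 3), and the fitted change was -2.08 (SE 0.18, edgeR adjusted p = 6.33e-06). Deletion replicate 1 kept more distal counts than the other 2 deletion libraries. The change was -2.28 (SE 0.16, edgeR adjusted p = 3.81e-06) without it.

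The loss was graded along the frame. The last 12 windows, from codon 261, were cut into stretches of 4 windows to show it. At codons 261 to 300 the deletion libraries stood at 36.4%, 34.7% and 36.8% of the wild type mean density, while the wild type libraries themselves ran from 77.5% to 115%. At codons 301 to 340 they stood at 23.6%, 14.7% and 17.9%, with deletion replicate 1 the highest. At codons 341 to 378 they stood at 2.85%, 3.23% and 2.06%, on 34, 28 and 16 counts beside 1430, 1129 and 1052 in the wild type. Group means over these stretches were 36.0% ± 1.13, 18.8% ± 4.51 and 2.71% ± 0.597 (SD, n = 3), after 108% ± 14.0 (SD, n = 3) at codons 71 to 260.

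**Figure D2:**
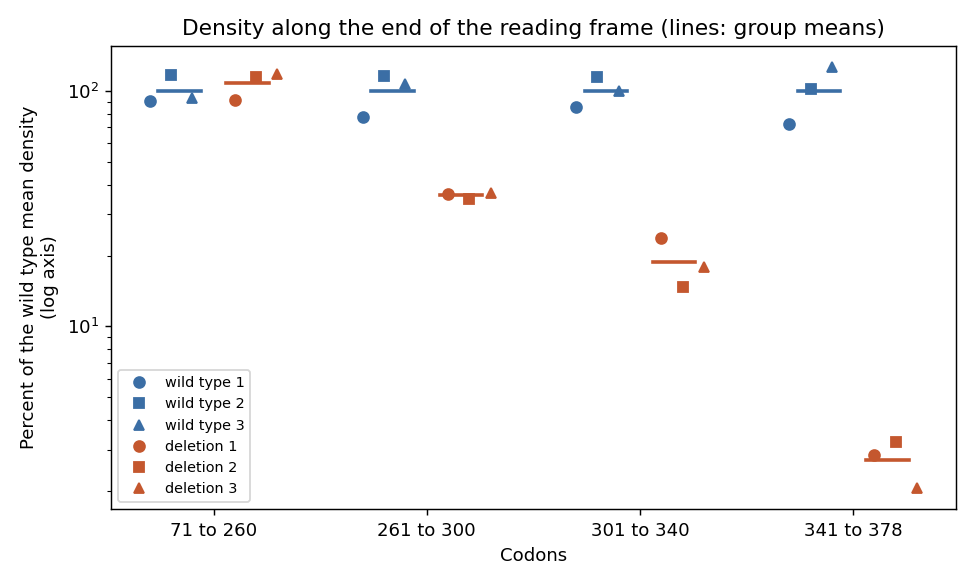
Density in 4 stretches of the reading frame as a percent of the wild type mean, on a log axis. Points are the 3 wild type (blue) and 3 deletion (orange) libraries and short lines the group means, which in the deletion go from 108% at codons 71 to 260 to 36.0%, 18.8% and 2.71% in the stretches after it.

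Window by window, 11 of these 12 fell. All 12 had every deletion library below every wild type library, and they count towards the 38.3% of all windows tested for which that held. The first was codons 261 to 270, at -0.90 (SE 0.25, edgeR adjusted p = 0.0133), with 302, 301 and 179 counts in the wild type and 120, 96 and 101 in the deletion libraries. The call rested on single libraries, since it was lost without deletion replicate 1 (-0.82, edgeR adjusted p = 0.0607) or without wild type replicate 2 (-0.68, edgeR adjusted p = 0.0731). Codons 271 to 280 followed at -1.59 (SE 0.23, edgeR adjusted p = 0.000102) and were called in each of these settings.

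The changes further along were not evenly spaced. Codons 301 to 310 and 311 to 320 lay close together at -1.83 (SE 0.24) and -1.80 (SE 0.33). Codons 321 to 330 lay at -3.30 (SE 0.31, edgeR adjusted p = 3.84e-06), on 176, 96 and 70 wild type counts and 14, 3 and 8 deletion counts. The values then went on to -3.43 (SE 0.35), -4.05 (SE 0.35), -4.39 (SE 0.46) and -5.11 (SE 0.50) at the windows from codons 331, 341, 351 and 361. Differences between neighbouring windows were not tested. The 1 window of the 12 that was not called, codons 281 to 290, had few counts (52, 37 and 23 against 8, 19 and 16) and a change of -0.87 (SE 0.38, edgeR adjusted p = 0.116).

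The last window, from codon 371 (nucleotides 1265 to 1294), had the lowest value in the frame. It held 839, 680 and 602 counts in the wild type and 11, 7 and 3 in the deletion, a change of -6.30 (SE 0.31, edgeR adjusted p = 8.80e-09). In the wild type this is a peak at the end of the covered frame. The last 5 covered codons, 374 to 378, had a density of 0.748 ± 0.203 (SD, n = 3) in the wild type and 0.00921 ± 0.00371 (SD, n = 3) for deletion libraries. By counts alone, 1952 against 20, they were 70.5-fold lower (45.5 to 116 by exact counting interval). Codon 378 was set as the end from the wild type alone, so these codons, here and below, were chosen where the wild type had counts.

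Where the loss lies was summarised by fitting a single step to deletion counts over wild type counts after UGA1. As the loss was graded, such a step gives a rough place and not an onset, and codons with many counts weigh most in it. In the 9 pairs of a deletion and a wild type library, the last codon before the step lay between 260 and 276, with a median of 274, and counts per wild type count after it were 0.123 to 0.297 of those before it. The cumulative counts show the same from the other side. Of the counts from codon 65 to codon 378, 95% had been reached by codons 340, 340 and 354 in the wild type and by codons 276, 261 and 261 in the deletion. The mark of 99% was reached at codon 376 in all 3 wild type libraries and at codons 315, 311 and 311 in the deletion.

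**Figure D3:**
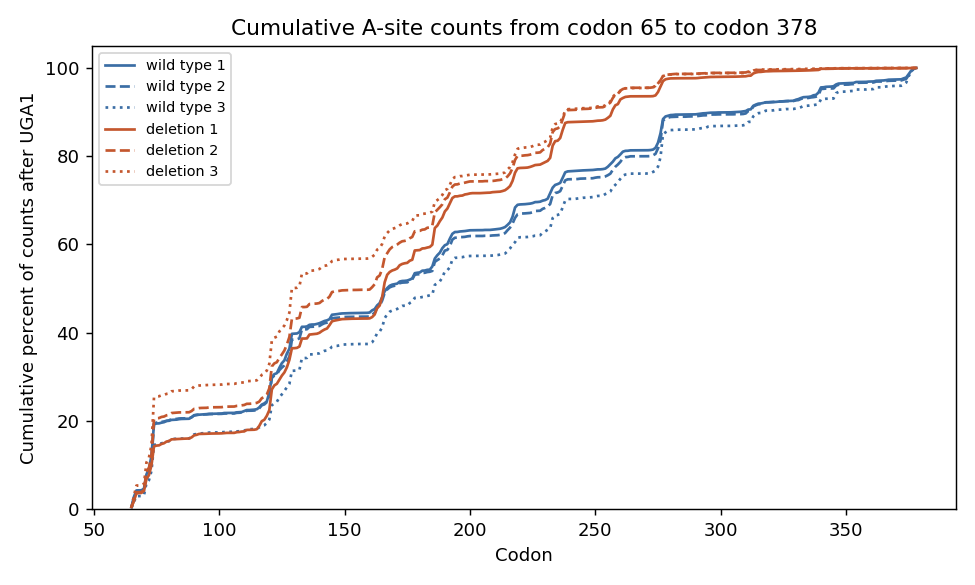
Cumulative percent of A-site counts from codon 65 to codon 378 against codon number, with 1 line for each of the 3 wild type (blue) and 3 deletion (orange) libraries. The deletion lines reach 95% by codons 261 to 276 and the wild type lines by codons 340 to 354.

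Of the 378 codons of the covered frame, 244 passed the filter, and 16.8% of those fell and 0.41% rose by the edgeR test (9 were higher at an unadjusted p under 0.05, and 2 rose with DESeq2). Of the 41 codons that fell, 40 lay at codons 261 to 378, where 53 were tested. Of those 53, 47 had all deletion libraries below all wild type libraries, and they count towards the 21.7% of all codons tested for which that held. The filter did not ask for counts in the deletion, so a codon could be tested on the counts of other libraries alone. Among the 53, 3 had no count in any deletion library, and 118 codons lie in this part. Shares of the tested codons there are therefore a description. The 1 that fell before codon 261 was codon 259 (-1.43, SE 0.36, edgeR adjusted p = 0.00754), which is named here after its value was seen. Over codons 60 to 260 the median log2 change was 0.11. Without deletion replicate 1, 38 codons fell, 36 of them among the 41. On simulated counts for this codon test, 22.6% of 2-fold and 93.3% of 4-fold changes (31 and 30 codons) were recovered. Codons that missed the threshold may thus yet differ between the groups. All deletion libraries were above all wild type libraries at 18 codons (7.38%), each of them before codon 261.

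The codon most used by wild type ribosomes in the distal part was 277, with 1049, 1056 and 776 counts in the wild type and 209, 145 and 153 in the deletion libraries. Its log2 change was -2.16 (SE 0.34, edgeR adjusted p = 0.000115). Codon 346, further along, held 132, 145 and 181 counts in the wild type and 4, 9 and 3 in the deletion, a change of -4.55 (SE 0.57, edgeR adjusted p = 9.57e-06). At both codons every deletion library was below every wild type library.

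At the end of the frame, codons 375 and 376 were the strongest of the wild type peak. Codon 375 held 249, 200 and 217 counts in the wild type and 4, 1 and 1 in the deletion, 80.2-fold lower per upstream count (36.6 to 219 by exact counting interval). Codon 376 held 255, 206 and 146 counts in the wild type and 2, 1 and 1 in the deletion (-6.73, SE 0.55, edgeR adjusted p = 4.03e-08). At codon 377, deletion replicate 1 had 5 counts and the others 1 and 0, and its change moved from -5.61 to -7.16 without that library. Of the other 15 lower codons named for the size of their change, 3 (codons 326, 352 and 368) had no count in any deletion library and were at least 9.39-fold, 10.1-fold and 4.82-fold lower, against a floor of 3 counts over the group. The remaining 12, codons 325, 330, 332, 333, 342, 347, 354, 362, 366, 373, 374 and 378, held 1 to 10 counts summed over the deletion libraries.

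The single codon that rose was 174, in the proximal part, with 9, 7 and 4 counts in the wild type and 26, 13 and 11 in the deletion libraries. Its change was 1.71 (SE 0.53, edgeR adjusted p = 0.0290), and it was called in none of the 6 fits that left out 1 library each, with adjusted p from 0.0524 to 0.160.

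Elongating ribosomes place their footprints mostly in the first position of a codon. The share of distal counts in that position was 62.0% ± 3.22 (SD, n = 3) in the wild type and 60.8% ± 1.78 (SD, n = 3) for deletion libraries, and the groups overlapped (exact permutation p = 0.6). The deletion had 1075, 662 and 628 counts there against 5258, 4109 and 2985, so its few remaining distal footprints kept a majority in frame. Upstream the shares were 55.2% ± 7.09 (SD, n = 3) and 58.1% ± 2.15 (SD, n = 3), and in the proximal part 55.6% ± 2.36 (SD, n = 3) and 58.6% ± 2.39 (SD, n = 3), with exact permutation p of 0.6 and 0.2. Across codons 261 to 378 the codon profiles of wild type and deletion libraries were less alike than before codon 261, with Spearman's rho from 0.582 to 0.697, beside 0.685 to 0.748 between deletion libraries, in which many of these codons hold few counts.

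The level of ribosomes per Selenop RNA was read from the authors' ratio, in which footprints, relative to all those mapped in the library, are divided by the RNA-seq reads of Selenop, relative to all RNA reads mapped. Being relative to Selenop RNA, the ratio gives no measure of that RNA's amount, by number of cells or per cell. If the deleted sequence covers the empty stretch, RNA-seq reads could not fall there either. The divisor could then be smaller, and the ratio higher, in the deletion, which was not tested. Summed upstream of UGA1 the ratio was 0.0852, 0.0625 and 0.0814 in the wild type and 0.104, 0.0833 and 0.0823 in the deletion, which overlapped (exact permutation p = 0.4). Over the proximal part it was 0.166, 0.157 and 0.163 against 0.202, 0.202 and 0.209, 1.26-fold higher with no overlap (exact permutation p = 0.1, the smallest possible). The log2 difference of 0.33 there stands beside 0.24 upstream, and it stayed between 0.31 and 0.35 with each library left out. Over the distal part the ratio was 0.0331, 0.0341 and 0.0429 against 0.0137, 0.00935 and 0.00978, a log2 difference of -1.76 with no overlap (exact permutation p = 0.1).

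**Figure D4:**
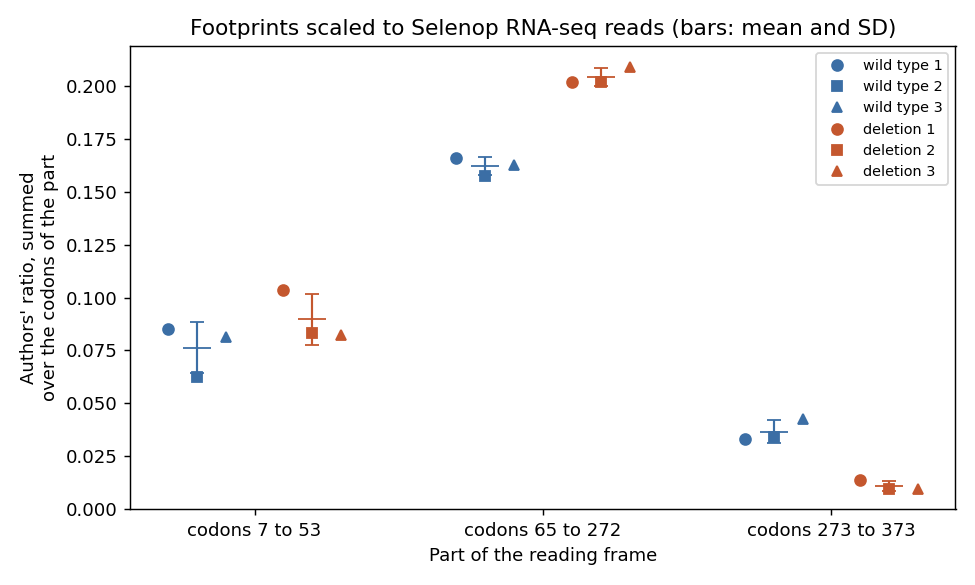
The authors' ratio of footprints to Selenop RNA-seq reads, summed over codons 7 to 53, 65 to 272 and 273 to 373, for 3 wild type (blue) and 3 deletion (orange) libraries, with bars for the mean and SD. The groups overlap upstream, the deletion is higher over codons 65 to 272 (0.202 to 0.209 against 0.157 to 0.166) and lower over codons 273 to 373.

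Over the whole covered frame the ratios of the groups overlapped. Summed over codons 1 to 378 the ratio was 0.310 ± 0.0239 (SD, n = 3) for the wild type and 0.340 ± 0.00952 (SD, n = 3) for the deletion. The exact permutation p was 0.2, where 0.1 is the smallest possible. Over codons 65 to 373, which join the proximal and distal parts, the direction turned with the scale. Density per upstream count changed by -0.12 (SE 0.14, edgeR adjusted p = 0.489), and the authors' ratio differed by 0.11 on the log2 scale (exact permutation p = 0.1, the smallest possible).

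Beyond the frame, counts outside the empty stretch were few. Before it, nucleotides 1289 to 1529 held 83, 47 and 26 counts in the wild type and 13, 3 and 15 in the deletion. Each deletion library was lower per upstream count, and the change of -1.79 (SE 0.61, edgeR adjusted p = 0.0280) passed the test. This call was lost without wild type replicate 1 (edgeR adjusted p = 0.0708), wild type replicate 2 (0.0681), deletion replicate 1 (0.0868) or deletion replicate 2 (0.0936). After the stretch, nucleotides 1704 to 2096 held 116, 49 and 32 counts against 29, 20 and 29, a change of -0.75 (SE 0.40, edgeR adjusted p = 0.137). Of the 9 windows tested outside the frame 5 fell. The 4 from nucleotide 1565 to 1684 lay in the empty stretch. The other, nucleotides 1505 to 1534 (-2.39, edgeR adjusted p = 0.0243), reached into that stretch from nucleotide 1530. It was not called without wild type replicate 2, deletion replicate 1 or deletion replicate 2 (edgeR adjusted p = 0.0731, 0.118 and 0.0806).

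The deletion of SECIS2 against its own wild type, 3 libraries each from the other line, was set beside that of SECIS1. The distal part fell in both, by 2.01 (SE 0.17) in the SECIS1 and by 0.57 (SE 0.16, edgeR adjusted p = 0.0118) in the SECIS2 deletion, a difference of -1.44 (SE 0.23, edgeR adjusted p = 0.000272) that was -0.0414 and not called when the distal part began at the middle of the downstream codons. The proximal part changed by 0.10 (SE 0.14) in the SECIS1 and by -1.09 (SE 0.14) in the SECIS2 deletion, a difference of 1.19 (SE 0.20, edgeR adjusted p = 0.000439). Distal over proximal density went from 0.481 ± 0.0363 to 0.692 ± 0.0841 (SD, n = 3 each) in the SECIS2 line, the opposite direction to SECIS1, a difference of -2.60 (SE 0.25, edgeR adjusted p = 1.18e-05). At the last 5 codons the difference was -6.78 (SE 0.42, edgeR adjusted p = 2.35e-07), where the SECIS2 deletion changed by 0.51 (SE 0.25, edgeR adjusted p = 0.116). The column headings give each line's libraries a number prefix of their own, whose meaning is not stated, and the line and whatever that prefix marks cannot be told apart in these differences.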

How the data were processed

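The authors deposited raw A-site counts for each nucleotide of the Selenop mRNA in 12 ribosome profiling libraries, and, per the file headers, a ratio of these counts, relative to all mapped footprints, to the RNA-seq reads of Selenop, relative to all RNA reads mapped. Within a library the ratio is the count times a constant. RNase I digestion gave footprints near 30 nt, per the labels' protocols. Per the submitters' processing notes, Bowtie and mm9 were used. How A sites were assigned is not stated in the sources used here.

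Nucleotide 158, the highest 5′ position, was taken as codon 2, so the frame starts at nucleotide 155. Its covered part ends at codon 378, before the first 20 codons under 1% of the upstream count per codon. UGA1 was taken as codon 59 from background knowledge, and codon 273 as the start of the distal part from an earlier split of these data. The landmarks are the start, UGA1 and the end of the covered frame, and the 5 codons next to each were kept out of the upstream, proximal and distal parts. No codons were left out at codon 273. Later UGA codons were not located, and no Selenop sequence was used here. Members, regions and tests were chosen with earlier results of these data known.

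Counts were tested with edgeR 4.0.16 (R 4.3.3), upstream counts as library size, in a group-means model over all 12 libraries, with Benjamini-Hochberg adjustment over 33 region tests, 47 windows or 244 codons (after filterByExpr). DESeq2 1.42.0 was an alternative. Named codons are the 20 called codons with the largest absolute change (up to 10 higher; 1 was, so 19 were lower), codons 1, 2 and 59, and the 5 after UGA1 highest in the wild type. Single values had exact permutation tests. Intervals and floors cover counting error only. Replicates differed beyond counting noise (lowest chi-square per degree of freedom 3.58). The codon and window tests were tested on simulated data, where 100% of 4-fold and 66.7% of 2-fold changed windows were recovered. Only 6 windows were changed at each size, in a single draw with the same spread for all features, so these shares are rough.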

Additional observations from a re-analysis of the deposited data

Results flagged for a closer look

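Listed here are effects that differed between the SECIS1 and SECIS2 deletions, each against its own wild type, by a test of the difference itself (edgeR, adjusted p under 0.05). The line and the number prefix of its libraries cannot be told apart in them. The SECIS1 effect was the higher one at codons 54 to 64 (1.23, SE 0.29), in the downstream part (0.85, SE 0.19) and in the proximal part (1.19, SE 0.20). It was the lower one in the distal part (-1.44, SE 0.23), for distal over proximal density (-2.60, SE 0.25), at the last 5 codons (-6.78, SE 0.42) and in the 3′UTR before the empty stretch (-2.16, SE 0.84, adjusted p = 0.0496). That last difference was not called without any 1 of the 3 wild type libraries or of deletion replicates 1 and 2 (adjusted p up to 0.102). With proximal counts as library size the downstream difference turned to -0.33 (adjusted p = 0.000218) and that at codons 54 to 64 was 0.0491, not called. With the distal part beginning at the middle of the downstream codons, its difference was -0.0414, not called. The difference in the empty stretch (-13.03, SE 1.69) restates the absence from which its bounds were set. The groups hold 3 libraries each, so no library was examined as an outlier.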

How the results depend on the processing

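Values are log2 changes unless given as counts. Of 406 alternatives for 32 results, 351 were counted as kept. These kept direction and call or, for values set against the spread between replicates, moved by less than 1 SD. Numbers of windows and codons called were counted as kept when near the main number. For codons that fell this was 33 to 52, beside 41. Of 359 alternatives for 28 single codons, 336 kept direction and call. Among the 351, codon 2 occupancy (-0.18) ran from -0.73 to 0.34 with 1 library left out. The upstream first-position share (2.93 points higher) likewise ran from -0.785 to 6.28 points. The distal fall, the fall of distal over proximal density and that of the last 5 codons stayed called in each count test run, at -2.14 to -1.92, -2.28 to -1.95 and -6.60 to -6.03 with 1 library left out, and at -0.81 and -0.91 for the first 2 when the distal part began at the middle of the downstream codons. With proximal counts as library size the leader was -0.0503, codons 1 to 6 -0.0903, codons 54 to 64 -0.0361 and the downstream part -0.22 (now called), and the SECIS1 minus SECIS2 difference was 0.0491 at codons 54 to 64 (not called) and -0.33 downstream. With the mRNA's total counts as library size the downstream part was 0.53, the proximal part 0.75 (now called) and the 3′UTR before the empty stretch -1.17 (not called), with differences of 1.08 at codons 54 to 64 and 0.71 downstream (neither called); the library size then holds the 3′UTR peak itself. All coding counts gave 0.20 for the proximal part (now called). With no codons left out beside the landmarks, these parts shrink to codon 1, at -0.0527, and UGA1 alone, at -0.35, and the differences at UGA1 and before the empty stretch were 0.0245 and -1.95 (neither called). Leaving out the 5 highest positions gave 0.80 for codons 1 to 6 (now called) and a difference of 0.91 at codons 54 to 64 (not called). The authors' ratio gave -1.76 for the distal part and -6.16 for the last 5 codons, each with an exact permutation p of 0.1, the smallest possible, and 0.29, 0.11 and 0.33 for codons 54 to 64, the downstream and the proximal part. The difference in the distal part was -0.0414 with the middle split (not called), and that before the empty stretch was -2.17 with 10 codons left out and -2.16 with the middle split (neither called). UGA1 occupancy over 3 codons was -0.0919. The number of codons that rose was 2 with TMM, DESeq2 size factors, all coding counts, DESeq2 or only the SECIS1 line. With 1 library left out, the leader ran from -0.35 to 0.45, codons 1 to 6 from -0.27 to 0.36, codons 54 to 64 from -0.10 to 0.17, the 3′UTR before the empty stretch from -2.35 to -1.38, its difference from -2.72 to -1.75, codons that rose from 0 to 1, codon 1 from -0.48 to 0.29, codon 2 from -0.58 to 0.22, codon 71 from -0.13 to 0.41, codon 74 from -0.40 to 0.33, codon 129 from -0.23 to 0.43 and codon 174 from 1.47 to 1.86. Codons 1 and 74 were 0.0184 and 0.0466 with DESeq2 size factors and 0.0449 and 0.0591 with all coding counts. Deviations of same-numbered titled libraries had r = -0.034 and -0.040, and those of the replicates numbered 1 had r = 0.163. Pairs of different number ran from -0.138 to 0.198, so these few values cannot decide whether equal numbers mark a pairing. With a block for replicate number, codons 1 and 74 were at 0.41 and 0.28. The 3′UTR before the empty stretch was at -1.92 and its difference at -2.57 (neither called). The block gave 0 codons that rose, 38 that fell, 14 windows that fell and 1.36 for codon 174. The cause of these shifts was not tested. Stretches between UGA codons, planned as a further test, were not run, as no sequence located them. Depth limits the values of few counts, such as the last 5 codons, with 11, 6 and 3 counts in the deletion libraries.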
